A study of Rattus norvegicus with 9 samples.

Results

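The ADAMTS proteases (a disintegrin-like and metalloproteinase with thrombospondin motifs) were followed in rat heart after ischemia-reperfusion injury (IRI), with and without remote ischemic postconditioning (RPostC). The 9 members were Adamts1, Adamts2, Adamts4, Adamts5, Adamts7, Adamts8, Adamts9, Adamts12 and Adamts15, chosen by name with earlier results of these data known. They were 9 of the 21013 genes that had a probe set with a single symbol. Each member had 1 such probe set. RNA of the left ventricle from male Wistar rats was hybridized to 9 arrays, 3 in each of 3 groups. Hearts of the IRI + RPostC group had the left anterior descending branch of the coronary artery occluded for 45 min, and the left femoral artery was then clamped for 30 s and released for 30 s in 3 cycles. The IRI group had the same 45 min occlusion and no femoral clamping. In the control group a thread was passed around the vessel for 60 min and no occlusion was made, so the controls shared the anesthesia and the open chest. Both occluded groups were left to stabilize for 15 min before closure of the chest. A general description of the ligation gives 30 min, and neither the age of the rats nor the time from reperfusion to the collection of this RNA was given in the sources used here.

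ADAMTS proteases are secreted zinc enzymes that cut proteins of the extracellular matrix. Adamts1, Adamts4, Adamts5, Adamts8, Adamts9 and Adamts15 belong to the branch that cuts versican and aggrecan, the large proteoglycans that bind hyaluronan. Adamts2 removes the amino-terminal propeptide of fibrillar procollagens, and Adamts7 and Adamts12 can cut the cartilage oligomeric matrix protein. In the mouse embryo, versican cleavage by this branch takes part in the shaping of the ventricular wall and the valves. Several members are made rapidly in stressed or inflamed tissue, and Adamts1 was first described in mice as a gene associated with inflammation.

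Values are log2 signals, so a difference of 1 is a factor of 2. They are not set per gene length, so signals were compared between groups and not between genes. A gene was called higher or lower when its limma p-value was under 0.05 after Benjamini-Hochberg adjustment across 65403 probe sets. A signal under 4.82 was taken as not above background, since 95% of 275 receptor probe sets of smell and taste lay under it in their mean over the arrays. Nothing in the sources states that each array held RNA of a different rat, so every p-value here rests on the spread among arrays, which may be technical. The control arrays differed from the others in more than treatment. The 4 probe sets of the hybridization controls, which are added in known amounts, averaged 10.44 in the IRI + RPostC group, 10.42 in the IRI group and 11.21 in the control group. Probe sets at 19 or above numbered 1944 to 1948 on each IRI + RPostC array, 1918 to 1948 on each IRI array and 166 to 172 on each control array. Differences in how the arrays were handled and differences due to the occlusion cannot be told apart here. The tissue carried its label: all 6 of the 8 cardiomyocyte markers that were measured lay above background, and their mean level per array was 16.33 to 16.48 in the IRI + RPostC group, 16.33 to 16.42 in the IRI group and 16.20 to 16.28 in the control group.

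Against control, Adamts1, Adamts9 and Adamts4 were higher and Adamts5 was lower in both occluded groups, and the other 5 members were not called. In the IRI + RPostC group 3 of 9 members (33.3%) were called higher, where 10.2% of all genes were, and 1 of 9 (11.1%) lower, where 9.84% were. In the IRI group the counts were again 3 of 9 higher, where 8.90% of all genes were, and 1 of 9 lower, where 9.42% were. The share called lower was therefore near that of all genes in both comparisons. The members and the gene lists used below were chosen with earlier results of these data known. Their shares called higher therefore cannot be read as a trait of the family or of a list. Of 7 further Adamts genes measured, 1 was called higher and 1 lower in each comparison. The median log2 difference of the 9 members was 0.05 in the IRI + RPostC group and 0.12 in the IRI group, against -0.04 and -0.03 over all genes. Both comparisons used the same 3 control arrays. The plot of signals by array shows each member.

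**Figure D1:**
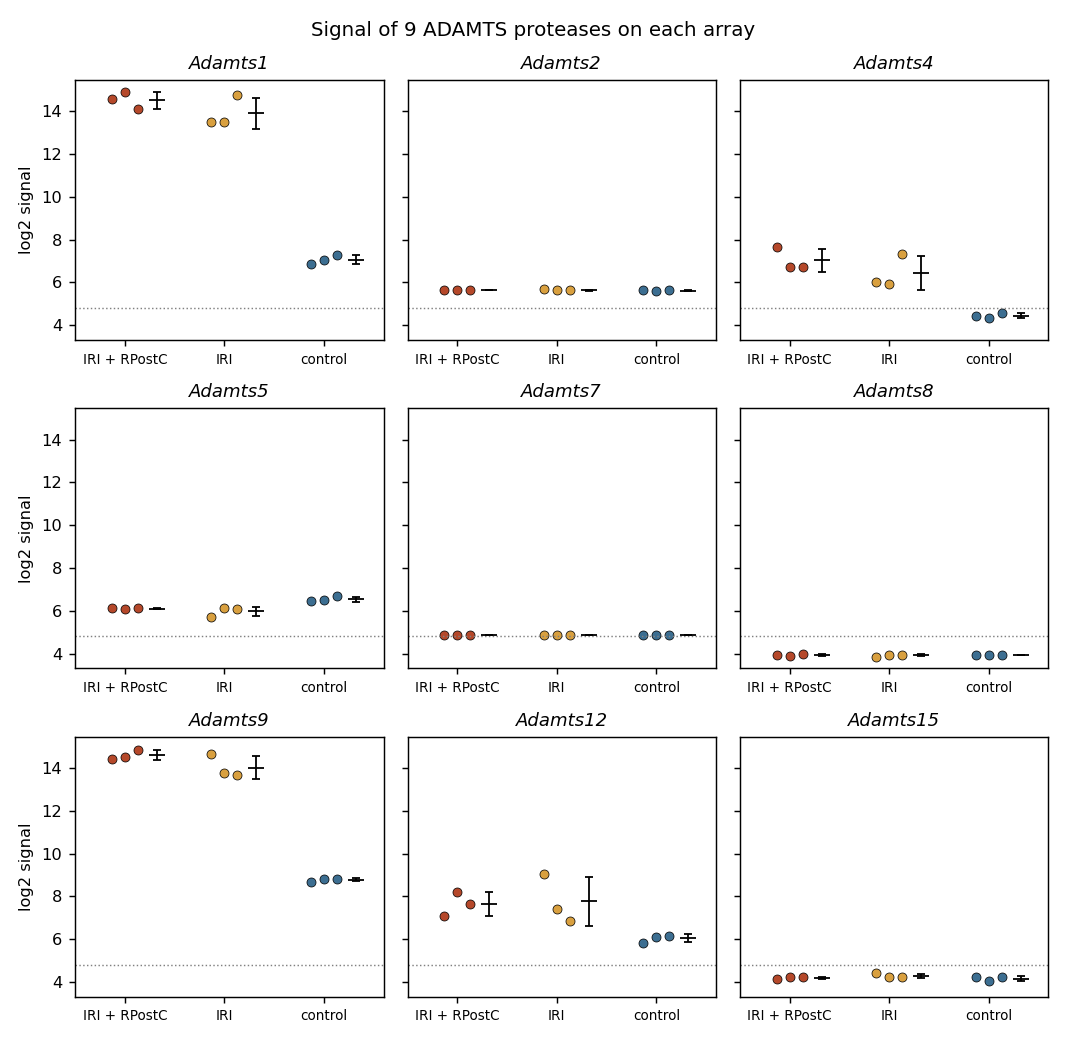
Log2 signal (vertical axis, 1 scale for the 9 panels) of each ADAMTS member on the 3 arrays of the IRI + RPostC, IRI and control groups, with the mean and SD beside the points and the background limit of 4.82 as a dotted line. Adamts1 and Adamts9 lie above 13 on all 6 arrays of the occluded hearts and under 9 on the 3 control arrays, while Adamts2, Adamts7, Adamts8 and Adamts15 lie flat.

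Adamts1 had the widest difference of the 9 members. Its log2 signal was 14.58, 14.87 and 14.08 on the IRI + RPostC arrays, 13.47, 13.47 and 14.74 on the IRI arrays, and 6.84, 7.04 and 7.28 on the control arrays. The control arrays lay apart from all 6 others, which overlapped each other. The mean was 14.51 ± 0.40 in the IRI + RPostC group and 7.05 ± 0.22 in the control group (SD, n = 3 each), a log2 difference of 7.46 (SE 0.376), or 176-fold (limma adjusted p = 6.731e-06). The IRI group, at 13.89 ± 0.74 (SD, n = 3), differed from control by 6.84 (SE 0.376), or 114-fold (limma adjusted p = 1.155e-05). Ranked from the largest rise among 21013 genes, Adamts1 stood at 20 in the IRI + RPostC group and at 23 in the IRI group.

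Adamts9, which in mice is needed for versican cleavage in the developing heart, moved in the same direction. Its log2 signal was 14.40, 14.52 and 14.85 on the IRI + RPostC arrays, 14.65, 13.75 and 13.65 on the IRI arrays, and 8.70, 8.82 and 8.83 on the control arrays. The control arrays were again all lower than the other 6, and they spanned 8.70 to 8.83, whereas the IRI arrays spanned 13.65 to 14.65. The log2 difference from control was 5.81 (SE 0.262; 56.0-fold; limma adjusted p = 3.59e-06) in the IRI + RPostC group and 5.24 (SE 0.262; 37.7-fold; limma adjusted p = 6.627e-06) in the IRI group. Adamts9 ranked 48 and 49 among the rises over all genes in these comparisons. With quantile normalization, which gives all 9 arrays 1 distribution, the difference of Adamts9 was 3.12 in the IRI + RPostC group and 2.93 in the IRI group, and that of Adamts1 was 5.47 and 5.19, and all 4 stayed called.

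Adamts4, an aggrecan and versican cleaving enzyme known from inflamed joints, was not above background on any control array. Its log2 signal was 7.65, 6.73 and 6.71 on the IRI + RPostC arrays, 6.03, 5.94 and 7.34 on the IRI arrays, and 4.44, 4.34 and 4.56 on the control arrays. The 6 arrays of occluded hearts were all higher than the control arrays, and the IRI arrays held both the lowest 2 of these 6 and the second highest. With control signals raised to the background limit, mean Adamts4 was 4.62-fold higher in the IRI + RPostC group and 3.07-fold higher in the IRI group. These bounds do not allow for the spread among arrays. As deposited, the log2 difference was 2.58 (95% confidence interval 1.60 to 3.56) in the IRI + RPostC group. In the IRI group it was 1.99 (1.01 to 2.97). The adjusted p from limma was 0.004473 for IRI + RPostC and 0.01617 for IRI. The IRI call did not hold without control replicate 2 (adjusted p = 0.0527) or in the methods' t-test on the same values (Benjamini-Hochberg adjusted p = 0.0928), while the IRI + RPostC call held in every setting tried.

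Adamts5, the other main aggrecan-degrading member, was the one called lower. Its log2 signal was 6.12, 6.09 and 6.12 on the IRI + RPostC arrays, 5.73, 6.12 and 6.08 on the IRI arrays, and 6.46, 6.49 and 6.68 on the control arrays. The control arrays were the 3 highest, by a small margin. The log2 difference was -0.44 (SE 0.110; limma adjusted p = 0.03236) in the IRI + RPostC group and -0.57 (SE 0.110; limma adjusted p = 0.011) in the IRI group. The IRI + RPostC call was lost when any 1 of the IRI + RPostC or control arrays was left out (adjusted p = 0.0507 to 0.0977) or when each array was centred on its median (-0.32, adjusted p = 0.0619). The IRI call was lost when only those 2 groups were fitted (adjusted p = 0.0532) and in the methods' t-test (adjusted p = 0.109), and with quantile normalization the difference grew to -0.91 in the IRI + RPostC group and -0.99 in the IRI group. Adamts5 and Adamts1 are neighbours on chromosome 11 in the RefSeq annotation, with 0 genes between them, and had opposite calls.

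Adamts12 lay above control on all 6 arrays of occluded hearts without passing the test. Its log2 signal was 7.08, 8.21 and 7.66 on the IRI + RPostC arrays, 9.05, 7.41 and 6.84 on the IRI arrays, and 5.85, 6.13 and 6.17 on the control arrays. No array of an occluded heart overlapped the control range, but the IRI arrays spanned 6.84 to 9.05. The difference was 1.60 (95% confidence interval 0.28 to 2.92; limma adjusted p = 0.1022) in the IRI + RPostC group and 1.71 (0.39 to 3.03; limma adjusted p = 0.09046) in the IRI group. It was called in the IRI group after dim probe sets were removed (adjusted p = 0.0462) and without IRI replicate 3 (2.18, adjusted p = 0.0458), and in the IRI + RPostC group when fitted with control alone (adjusted p = 0.0289) and without IRI replicate 1 (adjusted p = 0.0165). IRI replicate 1 held the highest Adamts12 value, and without it the difference between IRI and control was 1.07 (adjusted p = 0.113).

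The remaining 4 members passed the test in neither comparison with control as deposited. Adamts2, the procollagen propeptidase, had a log2 signal of 5.62 in the IRI + RPostC group, 5.62 to 5.67 in the IRI group and 5.61 to 5.62 in the control group. With quantile normalization its sign turned and it was called lower, by -0.21 in the IRI + RPostC group (limma adjusted p = 0.022) and -0.18 in the IRI group (limma adjusted p = 0.0463). Adamts7 lay just above the background limit, at 4.88 to 4.89 in the IRI + RPostC group and 4.88 on all IRI and control arrays. Adamts8 and Adamts15, which lie next to each other on chromosome 8 with 0 protein-coding genes between them, were not above background on any array. Adamts8 ranged over 3.89 to 3.98 in the IRI + RPostC group, 3.86 to 3.95 in the IRI group and stood at 3.95 in the control group, and Adamts15 over 4.16 to 4.25, 4.22 to 4.40 and 4.05 to 4.22. These 4 members shared 1 exact value on 5 or more of the 9 arrays, 7 for Adamts2, 8 for Adamts7, 6 for Adamts8 and 5 for Adamts15, as did 40.7% of all genes. Repeated values of this kind understate the spread, so intervals and p-values of these genes are not reliable. Among the called members, Adamts5 had 1 exact value, 6.115, on 3 arrays of occluded hearts, and Adamts1 had 13.4686 on 2 IRI arrays. The spread of Adamts5 and Adamts1 may therefore be understated too. The plot of differences sets the members side by side.

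**Figure D2:**
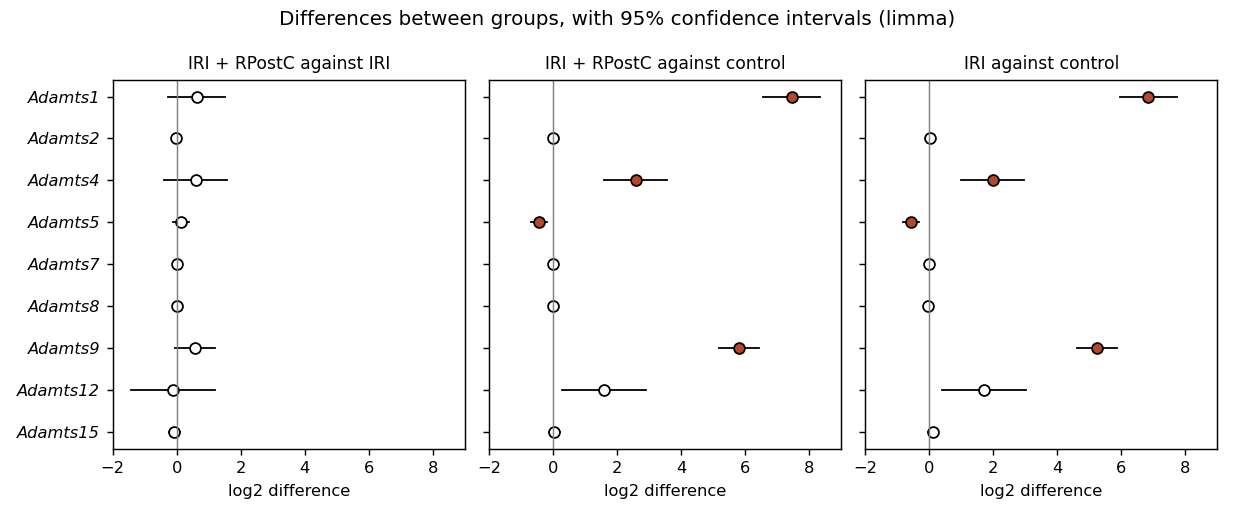
Log2 difference (horizontal axis) of each ADAMTS member between IRI + RPostC and IRI, IRI + RPostC and control, and IRI and control, with 95% confidence intervals from limma as lines; filled points passed an adjusted p under 0.05. In both comparisons with control 3 filled points lie to the right of 0 and 1 to the left, and in the comparison of IRI + RPostC with IRI no point is filled.

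To see whether the 3 members that rose share simple promoter features, the sequence upstream of each start was read from RefSeq (build GRCr8). Table entries were found for 6 of the 9 members, namely Adamts1, Adamts2, Adamts4, Adamts7, Adamts9 and Adamts12. The 250 bases before the start of Adamts1 (chr11:38427385-38427634, minus strand), Adamts9 (chr4:127019877-127020126, minus strand) and Adamts4 (chr13:86202761-86203010, plus strand) are shown because these are the members that rose, with the TATA box letters TATAAA in capitals.
Adamts1: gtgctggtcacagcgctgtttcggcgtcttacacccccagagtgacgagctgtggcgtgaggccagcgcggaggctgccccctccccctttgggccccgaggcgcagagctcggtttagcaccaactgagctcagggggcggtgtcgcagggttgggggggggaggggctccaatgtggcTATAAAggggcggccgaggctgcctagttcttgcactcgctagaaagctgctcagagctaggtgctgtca
Adamts9: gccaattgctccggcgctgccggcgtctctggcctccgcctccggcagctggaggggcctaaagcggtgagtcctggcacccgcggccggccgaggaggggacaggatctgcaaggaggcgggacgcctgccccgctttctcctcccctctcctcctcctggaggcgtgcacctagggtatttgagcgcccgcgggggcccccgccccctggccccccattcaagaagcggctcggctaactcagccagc
Adamts4: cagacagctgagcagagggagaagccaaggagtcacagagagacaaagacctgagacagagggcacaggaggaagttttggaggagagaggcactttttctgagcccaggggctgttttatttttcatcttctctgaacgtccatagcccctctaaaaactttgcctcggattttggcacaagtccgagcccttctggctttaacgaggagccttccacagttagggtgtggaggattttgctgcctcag

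The 3 promoters did not share a searched motif. Both strands of the 300 bases from 250 before to 50 after each start were searched, and shares are of 33469 promoters of that length. The TATA box, present in 14.2% of promoters, was found in Adamts1 at -70 to -65 from the start and, on the opposite strand, in Adamts7 at -18 to -13. The hypoxia core ACGTG, present in 19.3%, was found in Adamts9 only, on the opposite strand at 28 to 32 bases after the start. An NF-kappaB match, present in 4.2%, was found in Adamts12 on the opposite strand at -184 to -175. The AP-1 letters TGANTCA (7.3% of promoters), the cyclic AMP element TGACGTCA (1.8%) and the CArG box (1.6%) were found in none of the 6 windows, and no searched motif was found in Adamts2 or Adamts4. The 250 bases differed in composition, with 65.2% G and C in Adamts1, 71.6% in Adamts9 and 51.2% in Adamts4. These matches are descriptions of letters in a window and not of binding.

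Postconditioning was set against IRI alone in the third comparison. No member passed the test, and no probe set of the 65403 did (0% called; smallest adjusted p = 0.29). At an unadjusted p under 0.05 limma gave 2294 probe sets and the methods' t-test 1444. By gene, 1.91% were higher and 0.771% lower at that unadjusted threshold, and 0 of the 9 members were in either set. Adamts1 was 0.62 higher in the IRI + RPostC group than in the IRI group (95% confidence interval -0.27 to 1.51; unadjusted p = 0.1433 from limma), Adamts4 0.59 higher (-0.39 to 1.57; unadjusted p = 0.1955 from limma) and Adamts9 0.57 higher (-0.05 to 1.19; unadjusted p = 0.06468 from limma). These 3 differences moved by over 1.5 times with the setting: Adamts1 was at 0.28 with quantile normalization, 0.41 without IRI replicate 1 or 2 and 1.04 without IRI replicate 3, Adamts4 at 0.28 without IRI + RPostC replicate 1, 0.34 and 0.39 without IRI replicate 2 and 1, and 1.04 without IRI replicate 3, and Adamts9 at 0.19 with quantile normalization and 0.89 without IRI replicate 1. None was called in any of these fits. The arrays of the IRI + RPostC and IRI groups overlapped for all 9 members. The share of all genes that overlapped was not counted, so whether this overlap is particular to the members cannot be read from it. Adamts5 differed by 0.13 (-0.13 to 0.39) and Adamts12 by -0.12 (-1.44 to 1.20). The intervals of Adamts1, Adamts4, Adamts9 and Adamts12 reach beyond 1, so the 3 arrays per group do not show that the groups were alike.

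Of the rest of the protease family, 7 of 10 further Adamts genes were measured and 4 of these 7 were not above background on any array. In both occluded groups 1 of the 7 was called higher and 1 lower, near the shares over all genes of 10.2% higher and 9.84% lower with IRI + RPostC and of 8.90% and 9.42% with IRI. Adamts19, whose loss in mice and humans affects the heart valves, had 5.83, 6.11 and 6.23 on the IRI + RPostC arrays, 6.19, 6.01 and 5.83 on the IRI arrays, and 5.27, 5.23 and 5.31 on the control arrays. It was thus 0.79 higher in the IRI + RPostC group and 0.74 higher in the IRI group (limma adjusted p = 0.003638 and 0.005223), with no overlap with control. Adamts10, a partner of the fibrillin microfibrils, was called lower, with log2 differences of -0.23 in the IRI + RPostC group and -0.21 in the IRI group (limma adjusted p = 0.01969 and 0.03629), calls that centring each array on its median removed. Of the 7 ADAMTS-like proteins, which lack the protease domain, 2 were called higher and 1 lower in both groups, beside the same shares of all genes. Thsd4, which binds fibrillin, was 0.52 higher in the IRI + RPostC group and 0.49 higher in the IRI group (limma adjusted p = 0.001311 and 0.001872), while the calls of Adamtsl3 and Adamtsl5 were lost with quantile normalization.

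The genes of the proteoglycan matrix on which these enzymes act gave 2 called higher and 0 lower among 11 measured, in both occluded groups, where the share called higher over all genes was 10.2% with IRI + RPostC and 8.90% with IRI. The 2 were Vcan, which encodes versican, and Has1, a hyaluronan synthase. Vcan had 12.77, 10.88 and 12.14 on the IRI + RPostC arrays, 10.10, 10.02 and 10.93 on the IRI arrays, and 6.96, 6.45 and 6.59 on the control arrays. It was 5.27 higher than control in the IRI + RPostC group (38.5-fold; limma adjusted p = 0.000232) and 3.69 higher in the IRI group (12.9-fold; limma adjusted p = 0.001728). Has1 had 9.55, 7.61 and 9.32 on the IRI + RPostC arrays, 7.37, 7.42 and 8.10 on the IRI arrays, and 5.33, 5.13 and 5.58 on the control arrays. Its difference from control was 3.48 in the IRI + RPostC group and 2.28 in the IRI group (limma adjusted p = 0.002588 and 0.02029), and the IRI call was lost when either IRI replicate 2 or 3 or control replicate 1 or 2 was left out (adjusted p = 0.0532 to 0.0712). Between IRI + RPostC and IRI, Vcan was 1.58 higher (0.43 to 2.73; unadjusted p = 0.0139 from limma, adjusted p = 1) and Has1 1.20 higher (0.01 to 2.38; unadjusted p = 0.0483 from limma, adjusted p = 1), and for both the lowest IRI + RPostC array lay under the highest IRI array. Cd44 was 1.2 higher than control in the IRI + RPostC group and 1.1 higher in the IRI group. It was not called (limma adjusted p = 0.1227 and 0.1657). Aggrecan (Acan), brevican (Bcan), neurocan (Ncan) and 4 link proteins (Hapln1 to Hapln4) were not above background on any array.

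Among 12 activators, inhibitors and clearance factors, the IRI + RPostC group had 3 called higher and 0 called lower, and the IRI group 2 and 1. The shares over all genes were 10.2% higher and 9.84% lower with IRI + RPostC, and 8.90% and 9.42% with IRI, and the IRI counts lie near them. Timp1, an inhibitor of matrix metalloproteinases, had 11.75, 11.22 and 11.31 on the IRI + RPostC arrays, 9.88, 9.88 and 11.44 on the IRI arrays, and 5.69, 6.22 and 5.70 on the control arrays. The log2 difference from control was 5.56 in the IRI + RPostC group and 4.53 in the IRI group (limma adjusted p = 8.5e-05 and 0.00029). Sdc4, a cell surface proteoglycan that binds several of these enzymes, was 1.75 higher in the IRI + RPostC group and 1.29 higher in the IRI group (limma adjusted p = 0.00019 and 0.001061). Timp3, the main tissue inhibitor of Adamts4 and Adamts5, stood at 12.25, 11.83 and 11.97 on the IRI + RPostC arrays, 11.83, 11.36 and 11.83 on the IRI arrays, and 11.61, 10.61 and 11.03 on the control arrays, and its difference of 0.93 and 0.59 was not called (limma adjusted p = 0.05468 and 0.2089). The direction of Timp3 turned with the scaling: under quantile normalization it was called lower, by -4.77 in the IRI + RPostC group and -4.89 in the IRI group. Furin, Pcsk5, Pcsk6 and Pcsk7, proprotein convertases of the kind that remove the prodomain, were not called in either group. Lrp1, the receptor that clears Adamts4 and Adamts5, was 0.34 higher in the IRI + RPostC group (limma adjusted p = 0.01618) and lower by -0.39 with quantile normalization, so it has no settled direction. Fbln1, a cofactor of Adamts1, differed by -0.31 in the IRI + RPostC group (limma adjusted p = 0.1412) and was called lower in the IRI group (-0.45, limma adjusted p = 0.04891), a call lost when each array was centred on its median.

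**Figure D3:**
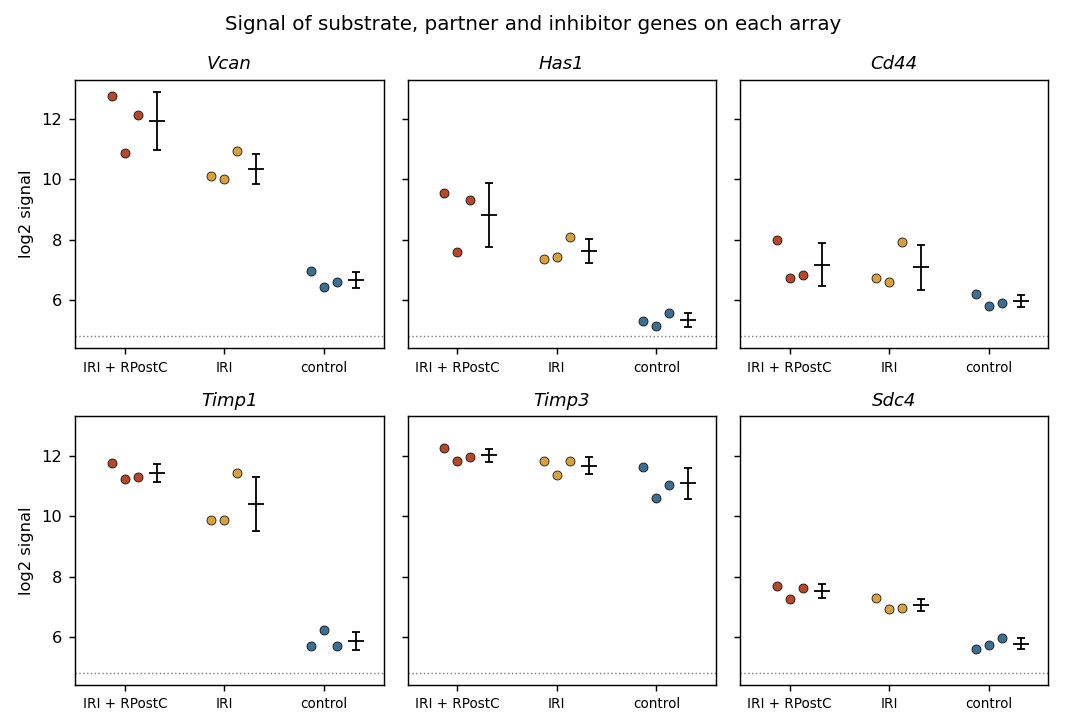
Log2 signal (vertical axis) of Vcan, Has1, Cd44, Timp1, Timp3 and Sdc4 on the 3 arrays of the IRI + RPostC, IRI and control groups, with the mean and SD beside the points and the background limit of 4.82 dotted. Vcan, Has1, Cd44, Timp1 and Sdc4 lie above control on all 6 arrays of the occluded hearts, though Cd44 was not called. IRI replicate 3, the right point of its group, is the highest IRI array for Vcan, Has1, Cd44 and Timp1.

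Of 7 substrate genes of Adamts2, Adamts7 and Adamts12, namely fibrillar collagens and Comp, 3 were called higher and 0 lower in both groups, beside a share called higher over all genes of 10.2% with IRI + RPostC and 8.90% with IRI. Col3a1 was 1.38 higher in the IRI + RPostC group and 1.32 higher in the IRI group, Col1a2 0.55 and 0.42, and Col5a2 0.44 and 0.35. With quantile normalization only Col3a1 in the IRI group kept its call. Comp was not above background on any array. Of 9 membrane-bound ADAM proteases 3 were called higher in both groups, beside the same shares of all genes, and quantile normalization turned the direction of Adam9 and Adam17.

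The arrays within a group did not order the members alike. In the IRI group, replicate 3 held the highest Adamts1 and Adamts4 values and also the highest Vcan, Has1, Cd44 and Timp1 values, whereas replicate 1 held the highest Adamts9 and Adamts12 values. In the IRI + RPostC group, Adamts4 was again highest on the array with the highest Vcan, Has1, Cd44 and Timp1 values, replicate 1, while Adamts1 and Adamts12 were highest on replicate 2 and Adamts9 on replicate 3. Marker genes of other cells also differed between arrays. In both occluded groups 4 of 6 endothelial markers were called higher as deposited, where 10.2% of all genes were with IRI + RPostC and 8.90% with IRI. Kdr, 1 of the 4, averaged 11.47 in the control group, near Timp3 at 11.09, whose direction turned with quantile normalization. Calls of the endothelial markers under other settings are not given here. The mean level of these 6 markers was 10.46 to 10.56 in the IRI + RPostC group, 10.06 to 11.17 in the IRI group and 7.76 to 8.26 in the control group. Its highest IRI array was replicate 1 (11.17, the others 10.21 and 10.06) and its highest IRI + RPostC array replicate 2, the same arrays on which Adamts12 was highest. The means of the fibroblast and macrophage markers, given below, were also highest on these arrays. The match with Adamts12 is therefore not particular to the endothelial markers. The mean of 7 neutrophil markers was 5.65 to 6.26 in the IRI + RPostC group, 5.79 to 6.03 in the IRI group and 4.90 to 4.99 in the control group, highest on IRI + RPostC replicate 1 and IRI replicate 3, the arrays on which Adamts4 was highest. Of these 7, S100a8, S100a9 and Mmp8 were called higher in both occluded groups and 0 lower, beside the same shares of all genes. Csf3r, Cxcr2, Ngp and Fcnb were not called, and Ngp was not above background on any array. The mean of 7 smooth muscle and pericyte markers was 9.16 to 9.59 in the IRI + RPostC group, 8.97 to 10.19 in the IRI group, with the highest value on replicate 3, and 9.58 to 9.75 in the control group. In the IRI group the match with Adamts4 is therefore not particular to the neutrophil markers. This smooth muscle mean joins markers that moved in opposite directions. With IRI + RPostC 1 of the 7 was called higher, Kcnj8 (0.96), and 1 lower, Acta2 (-4.01). With IRI 0 were called higher and 1 lower, Acta2 (-4.06), beside the same shares of all genes. The mean of 7 fibroblast markers was 9.61 to 9.75, 9.36 to 9.62 and 7.41 to 7.73 in the IRI + RPostC, IRI and control groups. Dpt differed from control by 5.94 in the IRI + RPostC group and 5.72 in the IRI group, and Col1a1 by 0.04 and 0.02. The difference of Dcn, 6.46 in both occluded groups, turned to -1.23 and -1.14 with quantile normalization. Of the 7 fibroblast markers the IRI + RPostC group had 4 called higher and 0 called lower, and the IRI group 3 higher and 1 lower, Fbln1. The shares over all genes were 10.2% higher and 9.84% lower with IRI + RPostC, and 8.90% and 9.42% with IRI. Dcn held 1 exact value, 18.824, on all 6 arrays of occluded hearts, and Dpt held 12.9115 on all 3 IRI arrays. Their spread is understated there. Macrophage markers averaged 6.48 to 6.71, 6.28 to 6.56 and 6.01 to 6.16, and 4 of 6 mesothelial markers were not above background on any array. Endothelial and fibroblast cells can both make ADAMTS proteases. The part of these cells in the members' differences was not tested, and in whole tissue a change in the number of cells of a type and a change in RNA per cell cannot be told apart.

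Over all 21013 genes, those whose signal most resembled each of the 3 members that rose were found by the root mean square distance over the 9 arrays, after each gene's control mean was subtracted, among genes with a group mean of at least 6. For Adamts1 these were Akr1c15, an aldo-keto reductase (distance 0.439 log2 units), Palldl1 (0.477) and Plat, the tissue plasminogen activator (0.499). For Adamts9 the closest was Il1r1, the interleukin-1 receptor (0.361), followed by the pseudogene Rpl37a-ps3 (0.366) and Rpph1, the RNA of ribonuclease P (0.413). For Adamts4 they were Csf1, the macrophage growth factor (0.217), Nr4a3, an early response nuclear receptor (0.253), and Pla2g2a, a secreted phospholipase (0.273). Distance is a description of likeness on these arrays, which share their control subtraction. It includes the gap between occluded and control arrays, in which handling and occlusion cannot be told apart. Rpph1, for example, averaged 19.7 in both occluded groups and 14.3 in the control group. Shared regulation was not tested.

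**Figure D4:**
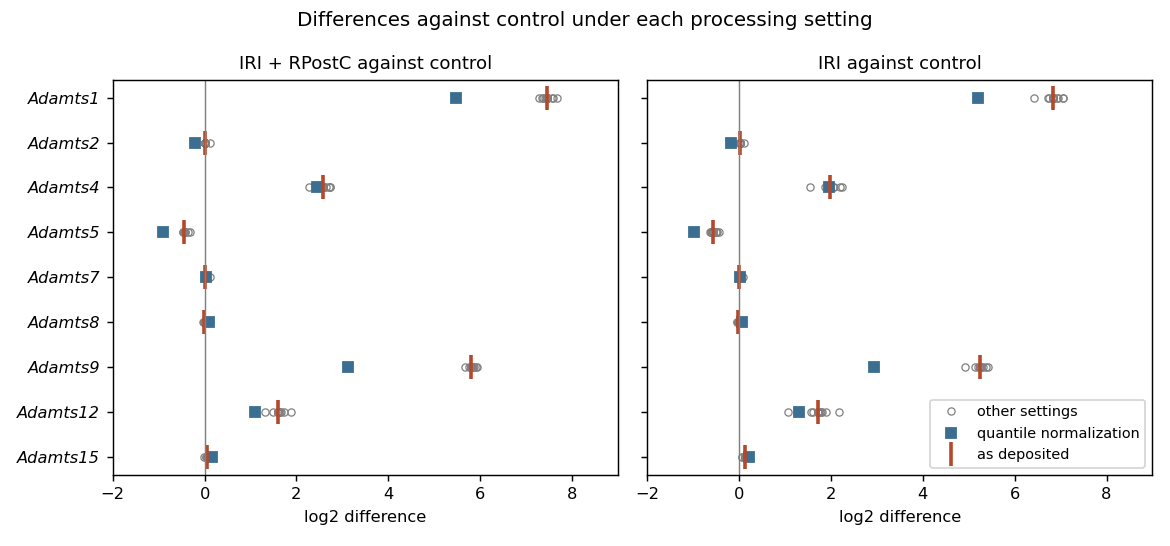
Log2 difference from control (horizontal axis) of each ADAMTS member in the IRI + RPostC and IRI groups, under the deposited normalization (vertical bar), quantile normalization (square) and each other setting tried (open circles). Adamts1, Adamts4, Adamts9 and Adamts12 stay to the right of 0 and Adamts5 to the left under every setting, and quantile normalization brings Adamts9 to 3.12 in the IRI + RPostC group and 2.93 in the IRI group.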

How the data were processed

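Total RNA was labelled and hybridized by the authors to Affymetrix arrays, which the methods call a rat gene array (Rat Gene 2.0 ST) and the series record a human transcriptome array. The probe sets matched the rat platform annotation used here. They applied robust multichip analysis (RMA), and what they deposited was read as log2 signal, running from 2.04 to 19.9. Not given in the sources used here were the software version and any statement that the 9 arrays were normalized as 1 set. Gene symbols came from the platform annotation, and of 65526 probe sets 123 controls were dropped. For each gene the probe set with the highest mean over the 9 arrays was used. The groups came from the sample labels.

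The 3 groups were fitted together by lmFit and eBayes of limma 3.58.1 (R 4.3.3), and p was adjusted over 65403 probe sets by the Benjamini-Hochberg method. The step was tested on simulated data. Bounds for Adamts4 use, per array, the higher of its signal and the background limit. Promoters came from RefSeq (GRCr8). Tables and figures were made with Python 3.11.15, numpy 2.4.6, pandas 2.3.3 and matplotlib 3.10.9.

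All 9 members are named. Other genes are those of lists of related proteases, substrates, regulators and cell markers, and the 3 most alike in pattern to each of the 3 members with the largest called difference between IRI and control. Members and lists were chosen with earlier results of these data known. Alternatives were quantile normalization, centring on the array median, array weights, 2 groups fitted alone, trend and robust settings, removal of dim probe sets or of those at 19 or more, means of all probe sets of a gene, the methods' t-test, a replicate block and leaving out each array. Removal of probe sets with identical values within a group was added after seeing the data. Infarct size, TUNEL and quantitative PCR were not analysed here.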

Additional observations from a re-analysis of the deposited data

How the results depend on the processing

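Adamts1 and Adamts9 were called higher in both occluded groups under every setting tried, as was Adamts4 in the IRI + RPostC group. The count of members called lower than control was 1 in each comparison as reported. In the IRI group it was 2 with quantile normalization, 0 with 2 groups fitted alone and 0 in the methods' t-test. In the IRI + RPostC group it was 2 with quantile normalization and 0 with arrays centred on their median, and it ranged from 0 to 1 when arrays were left out in turn. Members called higher ranged from 3 to 4 in the IRI + RPostC group and from 2 to 4 in the IRI group over those fits. With quantile normalization Adamts2 turned to -0.21 in the IRI + RPostC group (limma adjusted p = 0.022) and to -0.18 in the IRI group (limma adjusted p = 0.0463), the second member called lower. Turns of sign among members near 0 were Adamts8 against control, at 0.106 in the IRI + RPostC group and 0.0553 in the IRI group with quantile normalization and 0.111 and 0.0538 with centring, Adamts2 between IRI + RPostC and IRI (0.0246 with centring) and Adamts12 between IRI + RPostC and IRI (0.0562 with array weights). With arrays left out in turn, Adamts8 ranged from -0.0305 to 0.0132 and Adamts15 from -0.0128 to 0.0749 for IRI + RPostC against control, and Adamts8 from -0.0115 to 0.0428 and Adamts12 from -0.58 to 0.53 for IRI + RPostC against IRI. With a replicate block the counts stayed at 3 higher and 1 lower in both comparisons, and 27 of 27 member results kept their call. Same replicate numbers did not deviate together (correlations -0.30 to 0.04). Dim filtering left no value for Adamts8 and Adamts15, and removal of repeated values none for Adamts2, Adamts7 and Adamts8. Over all probe sets, 7025 were called higher and 4547 lower for IRI + RPostC against control, and 6509 and 4094 for IRI. With quantile normalization these were 5070 and 9271, and 4744 and 8946. With centring, which moved the median difference for IRI + RPostC against control to 0.06 instead of -0.06, they were 8451 and 2693, and 7459 and 2931. With the methods' t-test they were 5263 and 2089, and 4602 and 1828, with dim probe sets removed 7642 and 2962, and 7216 and 3068, and without IRI + RPostC replicate 2 the first pair was 6067 and 3006. The cause of these shifts was not tested. The 3 arrays per group limit the precision, and signal near background limits what Adamts7, Adamts8 and Adamts15 can show.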
